A study of Mus musculus with 14 samples.

Results

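The comparison described here sets ventricular tissue taken 3 days after myocardial infarction (MI) against tissue from sham-operated mice, across all genes measured. It rests on the 9 arrays that the labels place in those groups, 4 sham and 5 MI 3 days, of 14 arrays in the series, and the other 5 come from 14 days after MI. The mice were male C57BL/6 animals aged 8 weeks, and nothing in the labels names a transgene or a drug. In the MI groups the left anterior descending coronary artery was tied off, whereas the sham group went through the operation with no ligation. The ventricular border zone, the muscle next to the infarct, was collected, so each sample holds surviving muscle, infiltrating cells and forming scar in proportions that were not measured. The time at which the sham hearts were taken is not stated. The design text counts 5 sham and 10 ligated mice, and 4 sham arrays were analysed here. RNA was hybridised with 1 sample per array to a 1-colour Agilent mouse array that holds coding genes and large intergenic noncoding RNAs (lincRNAs).

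After a coronary artery is occluded, cardiomyocytes in its territory die and release signals that draw in neutrophils and then monocytes. Monocyte-derived macrophages clear the debris, while fibroblasts and endothelial cells divide and the fibroblasts lay down a provisional matrix that later becomes a collagen scar. Muscle at the border survives under abnormal wall stress, and such muscle is known for shifting from fatty acid use towards foetal isoforms and glucose.

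A level is the log2 signal of a probe after the 75th percentile of its array was subtracted, so a level of 0 lies at that percentile. A change is the log2 fold change of MI 3 days (n = 5 arrays) over sham (n = 4 arrays) ± its standard error from limma. The fit also held the arrays of the later time after MI. Standard errors and adjusted p-values therefore carry the spread of those arrays too, not only that of sham and MI 3 days. A gene rose or fell if its Benjamini-Hochberg adjusted p over all tested probes was under 0.05. For genes whose probe no scanned array of 1 group measured well above background, only a lower bound of the fold is given. It divides the bright group's mean by the lowest signal that counts as above background in the dim group, or by that group's own signal for the probe where this was higher. The adjusted p of the 19 genes given as bounds here ranged from 3.55e-11 to 2.51e-05.

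Correlations between arrays across probes were 0.989 to 0.992 within sham, 0.987 to 0.992 within MI 3 days and 0.921 to 0.943 between the groups, with the reserve that probes are no replicates. A first principal component of the 9 arrays separated the groups and held 79.4% of the variance, the second 4.21%. MI 3 days replicate 3 stood lowest on the second component, with a score of -49.8. Leaving it out left 10111 genes past the threshold, against 10442 with it. Tnni3, Ryr2 and Pln, which mark the cardiomyocytes of the labelled tissue, were well above background on every scanned array of both groups.

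Most genes differed between the groups. Of 14870 tested genes 10442 (70.2%) were past the threshold, with 4427 (29.8%) higher and 6015 (40.5%) lower in MI 3 days. At least 2-fold changes were seen in 2062 genes upwards (13.9%) and 2126 downwards (14.3%), and the arrays of the groups did not overlap for 9404 genes (63.2%). Over the 32261 tested probes 8219 (25.5%) rose and 12823 (39.7%) fell, together 65.2%. Counts of list members given below are to be read against these shares. List members above background on no scanned sham array were tested only because an MI group was bright, which favours a rise. Such were 5 of 40 mitosis genes, 4 of 19 neutrophil genes and 3 each of the metalloproteinase, growth factor, pattern receptor and complement lists. Other lists held fewer. Where no member of a list was called in a direction, none was past an unadjusted p of 0.05 there either, nor called when the 14-day arrays were left out of the limma fit. The median change over all genes was -0.15. It moved to 0.03 when arrays were centred on their median, and the share of called genes that were higher then rose from 42.4% to 53.5%. Small changes are to be read against this shift. Slides could be compared within themselves for 1 sham and 1 MI 3 days array each on a pair of slides, where 99.2% and 99.0% of the probes called by all arrays, these included, had the same direction. When slides entered the fit of the scanned arrays as a block 8218 genes were past the threshold.

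**Figure D1:**
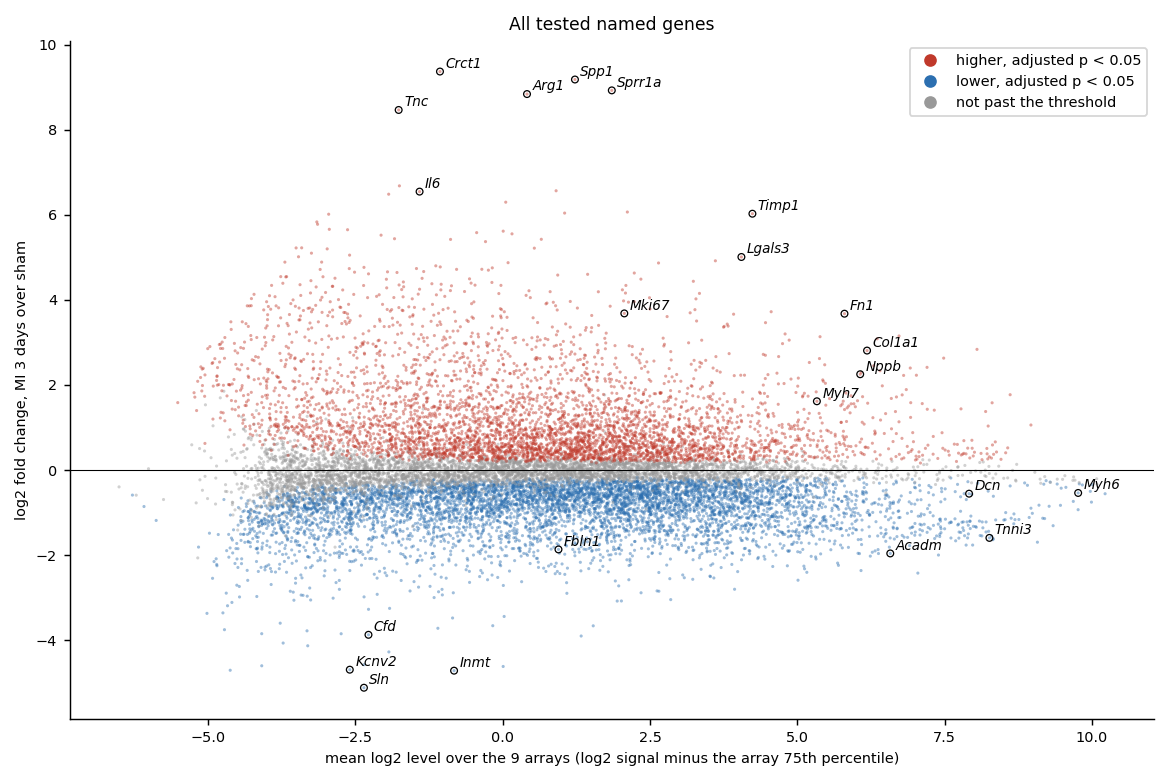
Log2 fold change of MI 3 days over sham (y axis) against the mean log2 level over the 9 arrays (x axis) for the 14870 tested genes, 1 point per gene, with colour giving whether the gene was higher, lower or not past an adjusted p of 0.05. Spp1, Sprr1a and Arg1 stand above 8, and Sln and Inmt lie between -4 and -6. The points of Crct1 and Tnc rest on sham signals not above background, so their height is not a measured size.

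Crct1, a cysteine-rich gene of the cornified envelope of skin, had levels of -6.18, -6.33, -6.09 and -6.48 on the sham arrays and 2.65, 3.60, 2.76, 3.19 and 3.29 on the MI 3 days arrays. All 5 MI 3 days arrays lay far above the 4 sham arrays, none of which was above background where it was measured, and the rise was at least 178-fold (adjusted p = 1.05e-10). Sprr1a, another gene of the cornified envelope that is also known as a stress gene of heart muscle, had levels of -3.30, -3.70, -2.62 and -2.82 on the sham arrays and 5.63, 6.06, 5.56, 5.79 and 6.06 on the MI 3 days arrays. It was measured on every scanned array of both groups, the groups were far apart, and it rose 487-fold (8.93 ± 0.25, adjusted p = 8.73e-11). AA467197, a small mitochondrial protein gene, rose by 6.57 ± 0.26. Steap1, a membrane protein gene of the cell surface, rose 103-fold, with 1 of 4 sham arrays above background.

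The largest decreases included genes of small-molecule metabolism and of the peptide enkephalin. Inmt, a methyltransferase acting on indoleamines, had levels of 2.29, 1.75, 1.0 and 2.15 on the sham arrays and -3.05, -2.98, -3.40, -2.74 and -2.44 on the MI 3 days arrays. Every MI 3 days array was below every sham array, and the fall was 26.3-fold (-4.72 ± 0.27, adjusted p = 1.01e-08). Ces1d, a carboxylesterase that cleaves triglyceride, changed by -3.66 ± 0.25, and Penk, the precursor of enkephalins, by -3.72 ± 0.20. Retnla, a secreted protein of alternatively activated macrophages, changed by -3.48 ± 0.53, opposite to the macrophage genes described below. Cyp26b1, which breaks down retinoic acid, changed by -4.62 ± 0.97. Aldh1l1, a folate enzyme, had levels of 0.68, 4.57, 4.23 and 4.52 on the sham arrays and -0.67, -0.38, -0.34, -0.40 and -0.24 on the MI 3 days arrays. Sham replicate 1 stood far below the other 3 sham arrays, nearer to the MI 3 days arrays, and with it the change was -3.90 ± 0.95.

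**Figure D2:**
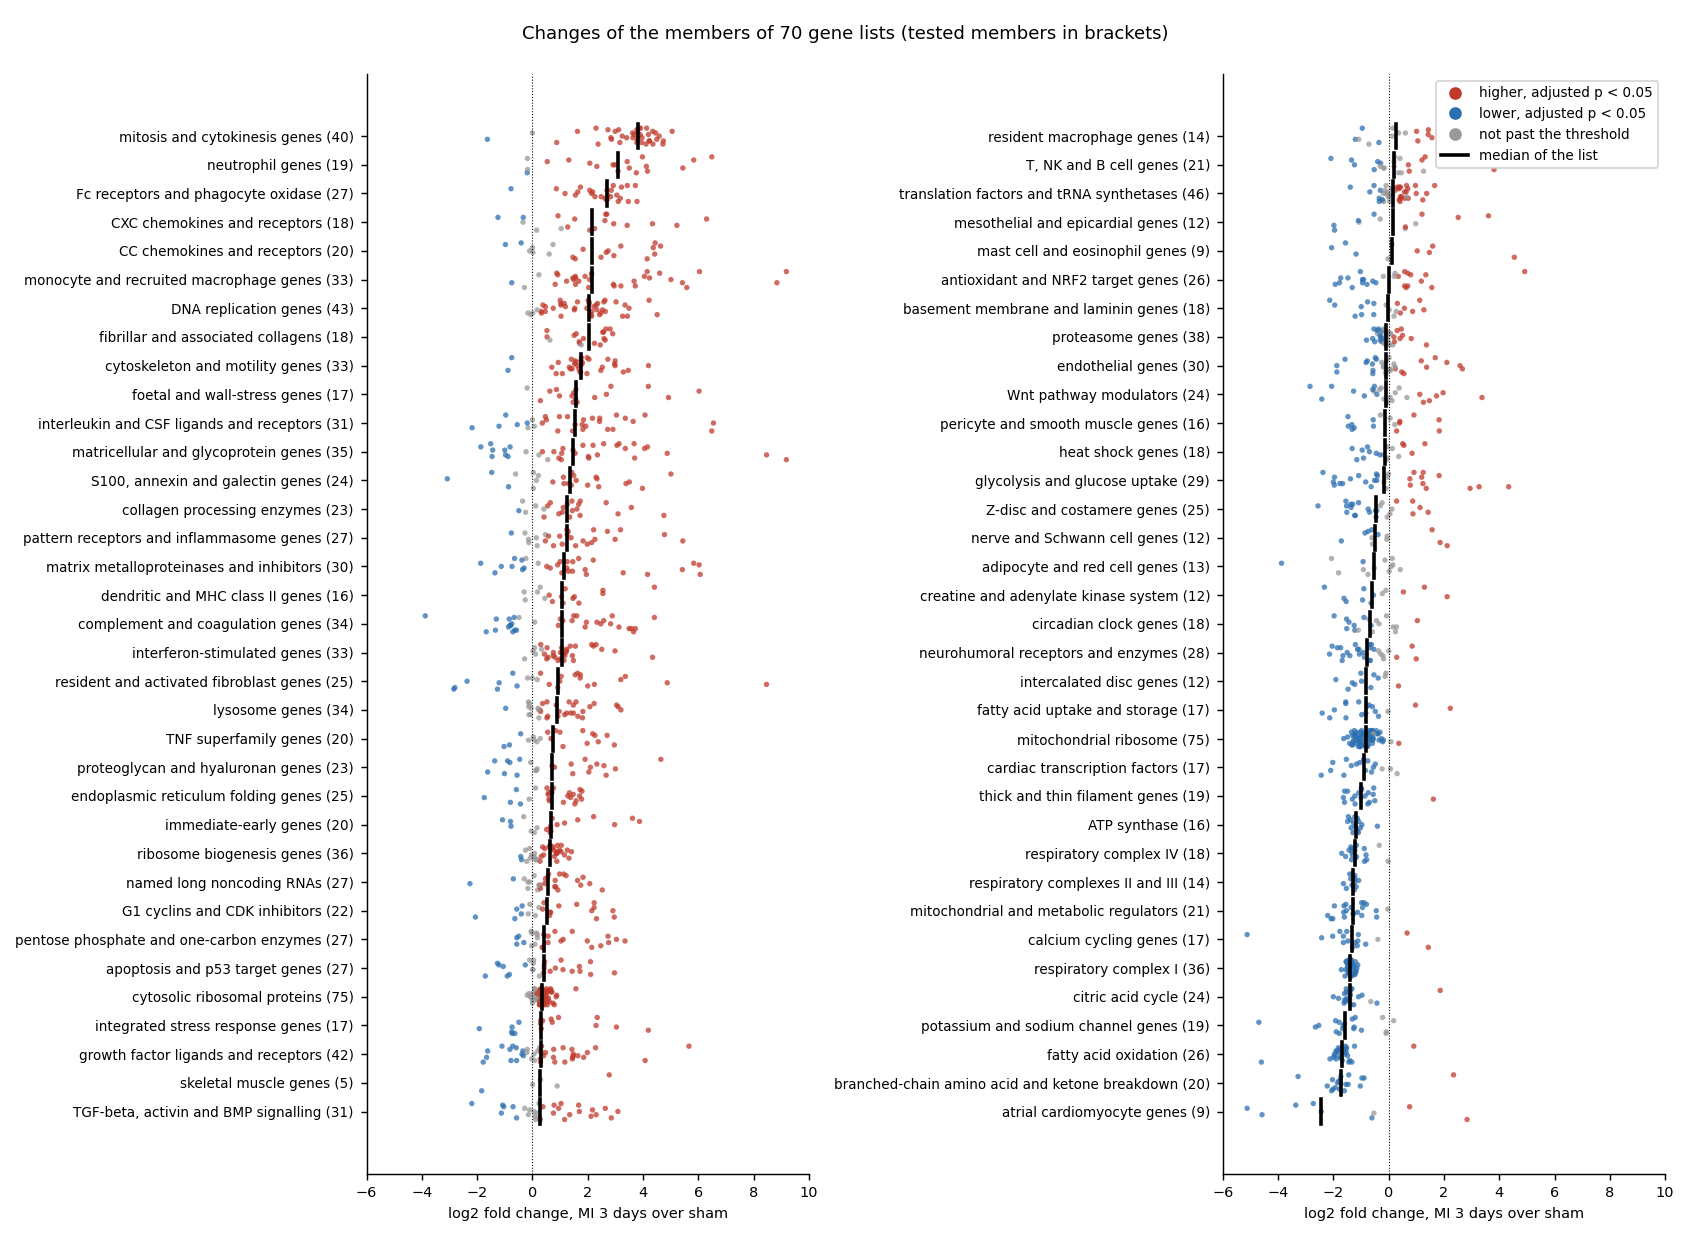
Log2 fold change of MI 3 days over sham (x axis) for each tested member of 70 gene lists (y axis, ordered by median), 1 point per gene, with a bar at the list's median and colour for the call. Medians run from 3.80 for mitosis genes to -2.44 for atrial genes, against -0.15 over all genes, and the atrial median was -1.52 with no filter, -0.57 with the filter for every scanned array and -0.75 with normexp.

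Genes of cell division rose together. Of 43 tested DNA replication genes 39 rose and 0 fell (median 2.05). Of 40 mitosis and cytokinesis genes 38 rose and 1 fell (median 3.80). Another background correction, normexp, gave a median of 2.40 on the scanned arrays. Of the 40, 5 were above background on no scanned sham array. At 14 days 38 of the mitosis genes and 39 of the replication genes were lower than at 3 days. The sequences just upstream of the start of 4 of these genes are shown because their promoters carry different short motifs. They are from RefSeq, build GRCm38.p6, read 5′ to 3′ on the gene's strand and ending at the base before its start. Capitals mark the cell cycle homology element TTTGAA in Cdk1 and Top2a (read on the other strand in Top2a), and the E2F motifs TTTGGCGC and TTTCCCGC in Mcm5 and Cdc6, found on either strand.

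Cdk1 promoter, chr10:69352913-69353002 (- strand): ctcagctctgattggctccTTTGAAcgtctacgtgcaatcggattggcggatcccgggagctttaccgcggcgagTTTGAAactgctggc
Top2a promoter, chr11:99024190-99024249 (- strand): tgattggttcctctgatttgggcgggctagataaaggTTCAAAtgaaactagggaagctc
Mcm5 promoter, chr8:75109339-75109508 (+ strand): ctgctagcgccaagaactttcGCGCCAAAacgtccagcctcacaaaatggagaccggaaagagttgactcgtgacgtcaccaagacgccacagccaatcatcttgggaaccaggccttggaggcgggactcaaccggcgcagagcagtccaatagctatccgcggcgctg
Cdc6 promoter, chr11:98907991-98908150 (+ strand): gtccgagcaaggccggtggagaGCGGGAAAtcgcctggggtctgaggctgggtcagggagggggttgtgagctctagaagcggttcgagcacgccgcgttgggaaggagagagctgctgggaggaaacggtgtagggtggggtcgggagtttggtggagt

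The window searched ran from 250 bases before to 50 bases after the start. TTTGAA was found in 22 of 33 mitosis genes with a promoter sequence (66.7%) and in 5 of 35 replication genes (14.3%), against 20.2% of the promoters of all 27025 genes. TTTGGCGC or TTTCCCGC was found in 0 of 33 mitosis genes and in 11 of 35 replication genes (31.4%), against 1.8% of all. CCAAT, the NF-Y motif, was in 75.8% of the mitosis and 62.9% of the replication promoters and in 41.1% of all. Other searches, on either strand of the same window, found the MEF2 motif in 0 of 16 promoters of thick and thin filament genes (0.122% of all) and TCAAGGTCA, the motif of oestrogen-related receptors, in 2 of 71 promoters of respiratory chain and ATP synthase genes (2.82%, against 0.466% of all). A match is a stretch of letters, not a measured binding site, and no binding was measured here.

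Cdk1, the kinase that drives entry into mitosis and whose promoter holds TTTGAA at 2 places, had levels of -2.56, -3.25, -5.13 and -2.68 on the sham arrays and 1.05, 1.46, 1.33, 1.48 and 1.25 on the MI 3 days arrays. The groups were apart, and it rose 26.3-fold (4.72 ± 0.43, adjusted p = 4.38e-07), with 3 of 4 sham arrays above background. Top2a, which untangles chromosomes, had levels of -2.89, -3.06, -4.28 and -2.69 on the sham arrays and 0.58, 1.06, 1.10, 1.13 and 1.06 on the MI 3 days arrays, with the groups apart and MI 3 days replicate 1 below its group. It rose by 4.22 ± 0.41. Mki67, the proliferation marker Ki-67, had levels of 0.50, 0.08, -0.90 and 0.39 on the sham arrays and 3.50, 3.83, 3.54, 3.88 and 3.76 on the MI 3 days arrays and rose 12.8-fold (3.68 ± 0.29). Ccnb1, the cyclin partner of Cdk1, and Aurka, a spindle kinase, rose by 4.50 ± 0.34 and 3.77 ± 0.20. Ccnb1 and Top2a were above background on 3 of 4 sham arrays. The kinetochore gene Nuf2 rose at least 16.1-fold. Pttg1, which encodes securin, the guard of sister chromatids, was the only mitosis gene that fell (-1.63 ± 0.11).

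Mcm5, a subunit of the replicative helicase, had levels of -0.62, -0.76, -1.15 and -0.82 on the sham arrays and 2.56, 2.39, 2.77, 2.71 and 2.54 on the MI 3 days arrays. The 5 MI 3 days arrays lay close together and clear of sham, and the rise was 10.8-fold (3.43 ± 0.12, adjusted p = 3.93e-10). Cdc6, which loads that helicase, rose by 3.49 ± 0.33 with 1 of 4 sham arrays above background, and the origin-firing factor Ticrr at least 11.6-fold. Pcna, the sliding clamp of DNA polymerase, rose by 1.15 ± 0.08 and stood below sham at 14 days (-0.25 ± 0.08). Among G1 regulators 13 of 22 rose and 5 fell. E2f1, an activator of replication genes, rose by 2.96 ± 0.18 and Ccnd1, cyclin D1, by 0.42 ± 0.08, while the CDK inhibitor gene Cdkn1c fell (-2.06 ± 0.11). Signals from bulk tissue cannot tell more dividing cells from more RNA per cell, nor fewer cells of a type from less RNA per cell.

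Genes of recruited monocytes and macrophages rose. Of 33 tested members 30 rose and 1 fell, 27 of them by at least 2-fold upwards (median 2.14). Arg1, the arginase of macrophages in healing tissue, had levels of -5.36, -3.86, -5.38 and -3.40 on the sham arrays and 4.19, 4.10, 5.73, 3.84 and 3.84 on the MI 3 days arrays. The groups were far apart, MI 3 days replicate 3 stood above its group, and 2 of 4 sham arrays were above background. It rose 459-fold (8.84 ± 0.63, adjusted p = 5.19e-08), and its mean at 14 days was 0.45 ± 0.63 from sham. Chil3, a chitinase-like protein of the same cells, rose by 6.04 ± 0.31, and Ccr2, the receptor that draws monocytes from the blood, by 4.15 ± 0.21. Gpnmb, a glycoprotein of lipid-laden macrophages, rose by 5.58 ± 0.37 with 3 of 4 sham arrays above background. Spp1, which encodes osteopontin, had levels of -4.15, -3.42, -4.49 and -3.46 on the sham arrays and 5.40, 5.15, 5.63, 4.99 and 5.36 on the MI 3 days arrays, the widest gap of any measured macrophage gene named here. It rose 581-fold, with 3 of 4 sham arrays above background.

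Genes of resident macrophages moved in both directions. Of 14 tested members 5 rose and 3 fell (median 0.25, from 0.07 without MI 3 days replicate 3 to 0.61 with the filter for every scanned array). Mrc1, the mannose receptor, rose by 1.56 ± 0.11, and Igf1, a growth factor that such cells secrete, by 1.43 ± 0.16. Lyve1, a hyaluronan receptor of vessel-associated macrophages and lymphatics, fell (-0.95 ± 0.18). Receptors for antibody and the phagocyte oxidase rose nearly as a whole, with 26 of 27 members higher and 1 lower (median 2.69). Fcgr1 and Fcgr4, which bind immunoglobulin G and activate phagocytes, rose by 3.72 ± 0.17 and 3.47 ± 0.28. Fgr, a kinase of myeloid cells, rose by 3.78 ± 0.34 and Cybb, the membrane subunit of the oxidase, by 2.14 ± 0.20. The 1 that fell was Fcgrt, the receptor that recycles immunoglobulin G (-0.77 ± 0.11).

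Neutrophil genes rose as well, with 16 of 19 tested members up and 1 down (median 3.1, or 1.40 with normexp on the scanned arrays). Their summed signal, however, overlapped between the groups, at 217 to 237 in sham and 221 to 320 in MI 3 days. S100a8, a calcium-binding protein abundant in neutrophils, had levels of -1.01, -0.33, 0.73 and -0.03 on the sham arrays and 4.50, 4.09, 4.66, 3.27 and 2.57 on the MI 3 days arrays. The groups did not overlap, the rise was 15.7-fold (3.98 ± 0.54, adjusted p = 2.07e-05), and the difference of 14 days from sham was -0.01 ± 0.54. Il1r2, the decoy receptor for interleukin 1, had levels of -6.74, -4.45, -6.13 and -4.84 on the sham arrays and 1.82, 0.72, 1.96, 0.41 and -0.17 on the MI 3 days arrays and rose at least 40.1-fold. Mmp8, the neutrophil collagenase, rose at least 14.1-fold, the receptor gene Clec4e at least 31.1-fold, and Cxcr2, the receptor for neutrophil chemokines, by 3.43 ± 0.68 with 2 of 4 sham arrays above background.

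Other leukocyte lists differed from each other. Of 21 tested T, NK and B cell genes 5 rose and 6 fell. The NK receptor gene Klrd1 rose at least 6.94-fold while the T cell costimulatory gene Cd28 fell (-1.34 ± 0.13). Of 16 dendritic and MHC class II genes 11 rose and none fell, among them Itgax, the integrin CD11c (4.41 ± 0.18), and Flt3, a receptor of dendritic precursors (1.19 ± 0.16). The summed signal of this list overlapped between the groups, at 295 to 412.5 in sham and 281 to 385 in MI 3 days. Its median was 1.08, or 0.63 with normexp on the scanned arrays. Cd74, the invariant chain of MHC class II, rose by 0.72 ± 0.19, a call that was lost when slides entered as a block on the scanned arrays. Among mast cell and eosinophil genes the eosinophil receptor gene Siglecf rose at least 10.2-fold and the mast cell protease genes Mcpt4 and Cpa3 fell (-2.06 ± 0.21 and -1.56 ± 0.36). Cpa3 was above background on 1 of 2 scanned MI 3 days arrays.

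Chemoattractants and cytokines followed. Of 20 tested CC chemokine and receptor genes 13 rose, all by at least 2-fold, and 2 fell. Of 18 CXC genes 13 rose and 2 fell. Ccl2, the main chemokine for monocytes, had levels of 0.44, 1.02, 1.13 and 0.50 on the sham arrays and 5.26, 5.08, 5.47, 5.07 and 5.15 on the MI 3 days arrays. The 5 MI 3 days arrays lay within 1 unit of each other and well above sham, and the rise was 21.7-fold (4.44 ± 0.19, adjusted p = 8.26e-10). Ccl7, a related ligand, rose by 4.63 ± 0.28, and Ccl3 by 4.42 ± 0.35 with 3 of 4 sham arrays above background. Among neutrophil chemokines Cxcl5 rose by 6.30 ± 0.42 (3 of 4 sham arrays above background), Cxcl1 by 2.69 ± 0.29 and Cxcl3 at least 9.76-fold. Ackr3, a scavenging receptor for CXCL12, fell (-1.25 ± 0.14).

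Of 31 interleukin and colony-stimulating factor genes 23 rose and 5 fell (median 1.54, which normexp lowered to 0.95). Il6, an inflammatory cytokine, had levels of -5.75, -2.91, -5.43 and -6.12 on the sham arrays and 0.21, 2.26, 2.68, 1.32 and 1.02 on the MI 3 days arrays, with 1 of 4 sham arrays above background, and rose 93.5-fold. Il1b, the secreted form of interleukin 1, rose by 4.07 ± 0.41 (3 of 4 sham arrays above background), and Il15, which sustains NK cells, fell (-2.18 ± 0.23). Tnf rose by 1.82 ± 0.19 from a level at which 1 of 4 sham arrays was above background, and the costimulatory ligand gene Tnfsf9 by 2.26 ± 0.14. Of 27 pattern receptor and inflammasome genes 20 rose and 1 fell. Tlr2, a receptor for bacterial lipoproteins and tissue debris, rose by 1.83 ± 0.14 and the pyrin gene Mefv by 4.78 ± 0.27 (3 of 4 sham arrays above background). The 1 that fell was Nlrp3, the sensor of the best known inflammasome, with levels of -2.03, -2.13, -2.81 and -2.23 on the sham arrays and -3.03, -2.81, -3.27, -3.29 and -2.93 on the MI 3 days arrays. The groups overlapped in range, and the change was -0.76 ± 0.16 (adjusted p = 0.000789).

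Interferon-stimulated genes rose moderately. Of 33 tested members 28 rose and none fell (median 1.06). Their promoters are known for the interferon response element, whose core, 2 copies of GAAA spaced by 2 bases, was found on either strand in 14 of 27 members with a promoter (51.9%) and in 3.99% of all. The stretch upstream of Isg15, a ubiquitin-like modifier, holds 3 overlapping copies, marked in capitals (RefSeq, GRCm38.p6).

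Isg15 promoter, chr4:156200819-156200918 (- strand): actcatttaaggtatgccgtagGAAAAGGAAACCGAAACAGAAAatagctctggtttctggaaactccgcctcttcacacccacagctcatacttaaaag

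Isg15 had levels of 2.75, 2.52, 1.76 and 2.62 on the sham arrays and 4.70, 4.64, 4.72, 4.83 and 4.69 on the MI 3 days arrays. The MI 3 days arrays were tightly grouped, sham replicate 3 was the lowest of the sham arrays, and the rise was 4.93-fold (2.30 ± 0.18). Irf7, a transcription factor of the interferon loop, and Ifit3, an antiviral effector, rose by 1.48 ± 0.17 and 1.11 ± 0.19. Cxcl10, a chemokine for T cells, rose most in the list (4.34 ± 0.28).

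Complement and coagulation genes went both ways. Of 34 tested members 19 rose and 13 fell. The macrophage product C1qa, which starts the classical pathway, rose by 1.6 ± 0.14. Plaur, the urokinase receptor, rose by 3.13 ± 0.18. F3, tissue factor, fell (-1.67 ± 0.13). Cfd, the protease adipsin, had levels of 0.25, -0.15, -1.28 and 0.66 on the sham arrays and -3.44, -6.18, -3.98, -4.02 and -2.39 on the MI 3 days arrays. The sham arrays spanned a wide range, the MI 3 days arrays were all lower, and 1 of 2 scanned MI 3 days arrays was above background. The change was -3.88 ± 1.09 (adjusted p = 0.00664), and the call was lost on the 10 scanned arrays alone. Adipocyte genes can enter a ventricular sample with attached fat. Of 13 adipocyte and red cell genes 2 fell and none rose, with summed signals of 1224 to 1486 in sham and 979 to 2314 in MI 3 days. These sums, in units of the array's 75th percentile, join adipocyte and red cell genes and do not give the adipocyte signal alone. The part of adipocyte genes in the change of Cfd was not tested.

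Cytoplasmic genes of phagocytes and motile cells moved the same way. Of 33 cytoskeleton and motility genes 31 rose and 2 fell (median 1.75). Tubb3, a beta tubulin best known from neurons, had levels of -2.94, -2.97, -3.52 and -2.49 on the sham arrays and 1.16, 1.33, 0.95, 1.28 and 1.36 on the MI 3 days arrays and rose 18.3-fold (4.20 ± 0.17, adjusted p = 6.84e-10). Every MI 3 days array exceeded every sham array by more than 3 units. Tubb6, another beta tubulin, rose by 2.53 ± 0.13, the actin-binding gene Cotl1 by 3.46 ± 0.15 and Vim, the intermediate filament of mesenchymal cells, by 1.98 ± 0.12. Stmn2, a microtubule regulator of neurons, fell (-0.89 ± 0.13). Of 24 S100, annexin and galectin genes 16 rose and 3 fell. Lgals3, the galectin of macrophages, rose by 5.01 ± 0.23, S100a4, a marker of motile cells, by 3.38 ± 0.16 and Anxa1, a brake on neutrophils, by 2.0 ± 0.18. Lgals4 and S100a1, the S100 protein of cardiomyocytes, fell (-3.08 ± 0.24 and -1.47 ± 0.13). Of 34 lysosome genes 24 rose and 1 fell. The protease gene Ctss rose by 3.20 ± 0.19 and Ctsl by 0.55 ± 0.13, the proton pump subunit gene Atp6v0d2 at least 5.44-fold, while Tfeb, a regulator of lysosome genes, fell (-0.97 ± 0.08).

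Genes of fibrillar collagen and its processing mostly rose. Of 18 fibrillar and associated collagen genes 16 rose and none fell (median 2.04). Col1a1, a chain of type I collagen, had levels of 4.33, 4.72, 4.52 and 4.92 on the sham arrays and 7.18, 7.43, 7.24, 7.68 and 7.63 on the MI 3 days arrays. The groups were apart by more than 2 units, and it rose 7.01-fold (2.81 ± 0.19, adjusted p = 4.19e-08). Col3a1, of type III collagen, rose by 2.45 ± 0.15, and Col8a1, a short-chain collagen of vessels, by 2.66 ± 0.18. Col11a1, better known from cartilage, rose at least 1.62-fold, from no sham array above background, and its call was lost with normexp. Of 23 collagen processing enzymes 18 rose and 1 fell. Lox, which cross-links collagen and elastin, had levels of -2.85, -2.79, -3.21 and -2.42 on the sham arrays and 2.02, 1.82, 1.75, 1.86 and 2.22 on the MI 3 days arrays and rose 27.0-fold (4.75 ± 0.26). Its relative Loxl4 rose by 3.58 ± 0.22 with 1 of 4 sham arrays above background, and Serpinh1, the collagen chaperone, by 1.43 ± 0.12. Basement membrane genes had no common direction, with 6 of 18 up and 8 down. Col4a1 rose (1.12 ± 0.15) while the laminin chains Lama2, of muscle, and Lamb3, of epithelia, fell (-0.98 ± 0.14 and -2.13 ± 0.15).

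Of 35 matricellular and glycoprotein genes 24 rose and 8 fell. Tnc, tenascin C of provisional matrix, had levels of -6.77, -6.32, -6.33 and -6.47 on the sham arrays and 1.2, 2.37, 1.96, 2.23 and 2.22 on the MI 3 days arrays. All MI 3 days arrays lay above the sham arrays, none of which was above background where it was measured, and the rise was at least 82.9-fold (adjusted p = 3.55e-11). Fn1, fibronectin, rose by 3.68 ± 0.25, Postn, periostin of activated fibroblasts, by 3.36 ± 0.20, and Thbs1, an activator of TGF-beta, by 4.16 ± 0.39. Efemp1, an elastic fibre gene, fell (-1.51 ± 0.20). Among proteoglycan and hyaluronan genes 12 of 23 rose and 7 fell. Ptx3, which binds hyaluronan matrices, rose at least 24.7-fold, Sdc1, a cell surface proteoglycan, by 3.00 ± 0.18, and Has1, a hyaluronan synthase, by 2.04 ± 0.27, while Gpc3, a glypican, fell (-1.62 ± 0.29).

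Of 30 metalloproteinase and inhibitor genes 20 rose and 8 fell. Timp1, the inducible inhibitor, had levels of 0.69, 0.81, 0.73 and 1.33 on the sham arrays and 6.88, 6.98, 7.23, 6.74 and 6.76 on the MI 3 days arrays and rose 65.2-fold. It was measured on every scanned array, and the groups were apart by more than 5 units. Timp4, the inhibitor enriched in heart, fell (-1.87 ± 0.24). Mmp14, a membrane-bound collagenase, rose by 3.28 ± 0.17 and the shedding protease gene Adam8 by 6.07 ± 0.20, while Adamts15 fell (-1.36 ± 0.20).

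A group of matrix and complement genes was lower than sham at 3 days and higher than sham at 14 days. Over all genes 228 were past the threshold in opposite directions at those times, 128 of them lower and then higher. Both differences share the sham arrays, so the direct difference between the times is given as well. Dcn, the collagen-binding proteoglycan decorin, had levels of 8.22, 8.25, 8.28 and 8.15 on the sham arrays and 7.65, 7.62, 7.65, 7.62 and 7.81 on the MI 3 days arrays. The MI 3 days arrays were all lower, by a small margin (-0.56 ± 0.08, adjusted p = 2.54e-05), while 14 days stood 0.81 ± 0.08 from sham and 1.37 ± 0.07 from 3 days. Fbln1, fibulin 1 of elastic fibres and basement membranes, had levels of 2.01, 1.88, 1.88 and 2.16 on the sham arrays and 0.41, -0.09, -0.27, 0.18 and 0.35 on the MI 3 days arrays and fell 3.65-fold (-1.87 ± 0.16), and 14 days stood 1.64 ± 0.16 from sham. C3, the central complement protein, changed by -1.34 ± 0.18 at 3 days and 0.79 ± 0.18 at 14 days.

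The next genes of that kind were chosen after their values were seen. Eln, elastin, changed by -1.0 ± 0.29 at 3 days and 2.60 ± 0.29 at 14 days. Comp, a thrombospondin of cartilage and tendon, changed by -0.88 ± 0.27 and 6.00 ± 0.27, and Omd, a small leucine-rich proteoglycan, by -0.90 ± 0.28 and 1.99 ± 0.28. The 3-day calls of Eln, Comp and Omd were lost on the 10 scanned arrays alone, and Omd overlapped between the groups. Pi16, a marker of quiescent fibroblasts, changed by -1.27 ± 0.19 and 1.45 ± 0.19. The complement regulator gene Serping1 changed by -0.64 ± 0.16 at 3 days and 1.08 ± 0.16 at 14 days, and the protease gene C1s1 by -0.79 ± 0.18 and 1.04 ± 0.18. The fibroblast list had 15 of 25 members up and 7 down at 3 days, with summed signals of 691 to 756 in sham and 525 to 686 in MI 3 days. In it Scara5, a ferritin receptor of resident fibroblasts, fell (-2.81 ± 0.24). The part of the number of fibroblasts in these changes was not tested.

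**Figure D3:**
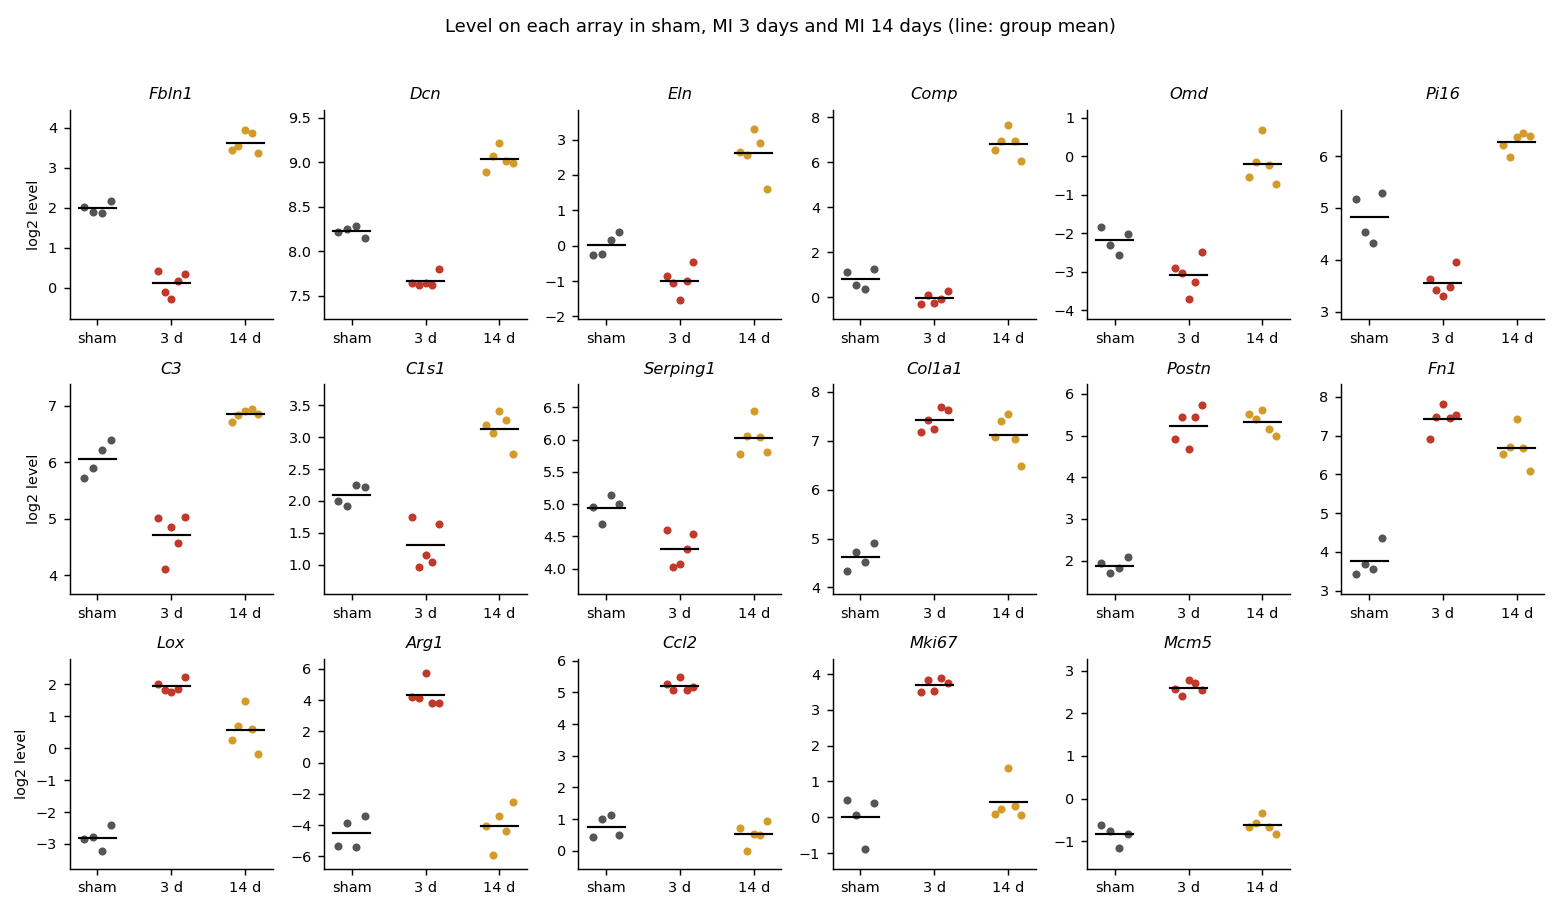
Level on each array (y axis, in log2 units, with 0 at the 75th percentile of the array) in sham, MI 3 days and MI 14 days for 17 genes, with a line at each group mean. The 9 genes from Fbln1 to Serping1 dip below sham at 3 days and stand above it at 14 days, Col1a1 and Postn are high at both times, and Arg1, Ccl2, Mki67 and Mcm5 are high at 3 days.

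Signalling lists were mixed. Of 31 TGF-beta, activin and BMP genes 16 rose and 6 fell. The activin subunit gene Inhba rose by 2.85 ± 0.24, Bmp2 by 2.63 ± 0.23 and Tgfb1 by 1.04 ± 0.10, while Gdf10 fell (-2.19 ± 0.33) with 1 of 2 scanned MI 3 days arrays above background. Of 42 growth factor genes 22 rose and 12 fell. Ereg, a ligand of the EGF receptor, rose at least 15.4-fold and Hgf, a growth factor for epithelia and endothelium, at least 5.01-fold. Vegfb, a VEGF ligand abundant in heart muscle, fell (-1.66 ± 0.16), and so did Vegfa (-0.71 ± 0.18), a call that was lost when slides entered as a block. Of 24 Wnt pathway modulators 6 rose, 8 fell and 10 were not past the threshold. Among the secreted ones Dkk2 rose at least 2.95-fold, Sfrp1 rose by 1.47 ± 0.19 and Wif1 fell (-2.84 ± 0.14). Receptors and enzymes of neurohumoral control were mostly lower, with 20 of 28 down and 3 up (median -0.78). Adrb1, the main beta-adrenergic receptor of the heart, changed by -1.86 ± 0.20, Agtr1a, the angiotensin receptor, by -1.68 ± 0.18, and the phosphodiesterase gene Pde4d by -2.14 ± 0.15. Adra1a changed by -2.04 ± 0.27 with 1 of 2 scanned MI 3 days arrays above background. Ednrb, an endothelin receptor, rose by 0.85 ± 0.17 and the ligand gene Edn1 by 1.0 ± 0.19, the latter a call that was lost when slides entered as a block.

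Cardiomyocyte genes were lower across structure, calcium handling, excitation and regulation. Of 19 thick and thin filament genes 18 fell and 1 rose (median -0.99). Their summed signal was 8573 to 10796 in sham and 5175 to 6112 in MI 3 days, in units of the array's 75th percentile. Tnni3, cardiac troponin I, changed by -1.6 ± 0.15, Mybpc3, a myosin-binding protein, by -1.0 ± 0.13 and Tcap, the titin cap, by -1.64 ± 0.17. Myh6, the adult cardiac myosin heavy chain, changed least among those named (-0.54 ± 0.14), and its call was lost with quantile normalization (-0.06) and when slides entered as a block. Myh7, the foetal myosin heavy chain in mice, was the 1 that rose (1.62 ± 0.31). Of 25 Z-disc and costamere genes 15 fell and 5 rose, with Myot, myotilin, at -2.56 ± 0.11 and the stretch-responsive gene Ankrd1 at 1.43 ± 0.14. Of 12 intercalated disc genes 9 fell, among them Dsp, desmoplakin (-1.23 ± 0.14), and Tmem65 (-1.91 ± 0.09). Gja1, connexin 43, was not past the threshold (-0.10 ± 0.18, adjusted p = 0.640).

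Of 17 calcium cycling genes 14 fell and 2 rose (median -1.31). Atp2a2, the calcium pump of the sarcoplasmic reticulum, had levels of 8.96, 8.95, 8.87 and 9.04 on the sham arrays and 7.20, 7.26, 6.97, 7.22 and 7.31 on the MI 3 days arrays. Both groups were tight and apart by more than 1.5 units, and the fall was 3.40-fold (-1.76 ± 0.15, adjusted p = 2.71e-07). Pln, phospholamban, the inhibitor of that pump, had levels of 7.33, 7.43, 7.64 and 7.06 on the sham arrays and 5.79, 4.99, 5.09, 5.33 and 5.49 on the MI 3 days arrays and fell 4.07-fold (-2.03 ± 0.21). Ryr2, the release channel, changed by -1.64 ± 0.16, and Fkbp1b, which binds the channel, rose (1.43 ± 0.21). Of 19 potassium and sodium channel genes 15 fell and none rose (median -1.59). Kcnd2, of the transient outward current, had levels of 1.66, 1.40, 1.62 and 1.38 on the sham arrays and -0.05, -0.36, -0.84, -0.51 and -0.26 on the MI 3 days arrays and changed by -1.92 ± 0.23. Kcnj2, of the inward rectifier, changed by -1.21 ± 0.29, the sodium channel subunit gene Scn4b by -2.65 ± 0.26 and the silent potassium channel subunit gene Kcnv2 by -4.70 ± 0.24, with 1 of 2 scanned MI 3 days arrays above background.

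Of 17 cardiac transcription factor genes 14 fell and none rose (median -0.90). Tbx5, needed for the rhythm and identity of cardiomyocytes, had levels of 2.39, 2.14, 2.15 and 2.30 on the sham arrays and 0.09, -0.30, -0.43, -0.28 and -0.06 on the MI 3 days arrays and fell 5.42-fold (-2.44 ± 0.16, adjusted p = 2.61e-08), with the groups more than 2 units apart. Hopx changed by -2.10 ± 0.20 and Gata4 by -0.90 ± 0.10. Foetal and wall-stress genes went the other way, with 16 of 17 higher and none lower (median 1.56). Nppb, the B-type natriuretic peptide, had levels of 4.71, 4.68, 4.73 and 5.14 on the sham arrays and 7.44, 6.99, 6.76, 7.18 and 6.97 on the MI 3 days arrays and rose by 2.25 ± 0.15. Sham replicate 4 was the highest of its group and still below every MI 3 days array. The list also holds Timp1, Hmox1 and other genes that non-muscle cells express.

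Mitochondrial genes fell almost without exception. All 36 tested complex I genes and all 14 of complexes II and III fell, each by at least 2-fold (medians -1.38 and -1.27). The smallest of these falls, -1.12 and -1.085, were near the 2-fold mark, and the scaling moved the sizes. With median centring the medians were -1.20 and -1.09. All 16 genes of ATP synthase fell too, 14 of them by at least 2-fold, and 16 of 18 of complex IV fell. Quantile normalization moved the medians of ATP synthase and complex IV from -1.19 and -1.21 to -0.93 and -0.90. Ndufs1, a complex I subunit, had levels of 7.72, 7.70, 7.62 and 7.71 on the sham arrays and 6.25, 6.00, 5.88, 6.14 and 6.28 on the MI 3 days arrays and fell 2.99-fold (-1.58 ± 0.11, adjusted p = 5.67e-08). The sham arrays lay within 0.2 units of each other and every MI 3 days array was more than 1 unit below them. Sdha, of complex II, changed by -1.41 ± 0.11, Uqcrc1, of complex III, by -1.64 ± 0.13, and Atp5a1, of ATP synthase, by -1.46 ± 0.12. Cox4i1, of complex IV, changed by -1.17 ± 0.12 and the muscle isoform gene Cox6a2 by -1.31 ± 0.28, the latter a call that was lost when slides entered as a block. Of 75 mitochondrial ribosome genes 72 fell and 1 rose (median -0.84), with Mrpl12 at -0.93 ± 0.11, Mrps35 at -1.63 ± 0.15 and Mrpl52, the 1 that rose, at 0.37 ± 0.08 (14 days -0.24 ± 0.08 from sham). In a fit with slides as a block Mrpl52 was no longer past the threshold. Of 24 citric acid cycle and pyruvate dehydrogenase genes 22 fell and 1 rose. Cs, citrate synthase, changed by -1.33 ± 0.13 and Idh2 by -1.6 ± 0.14. Of the kinases that switch off pyruvate dehydrogenase, Pdk2 fell (-2.0 ± 0.12) and Pdk3 rose (1.86 ± 0.14).

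Of 26 fatty acid oxidation genes 25 fell, all by at least 2-fold, and 1 rose (median -1.70, or -1.52 with median centring). Acadm, which dehydrogenates medium-chain acyl-CoA, had levels of 7.60, 7.62, 7.80 and 7.66 on the sham arrays and 5.97, 5.61, 5.48, 5.60 and 5.86 on the MI 3 days arrays and fell 3.90-fold (-1.96 ± 0.15, adjusted p = 1.11e-07), with the groups apart by more than 1.5 units. Acsm5, a medium-chain acyl-CoA ligase, fell at least 9.28-fold, against a floor that rests on 2 of the 5 MI 3 days arrays. For fat uptake, Cd36, a fatty acid transporter, changed by -1.08 ± 0.14 and Lpl, lipoprotein lipase, by -1.55 ± 0.14. Of 20 branched-chain amino acid and ketone genes 19 fell and 1 rose (median -1.74). Bckdha, of branched-chain keto acid dehydrogenase, changed by -2.03 ± 0.15, and Bcat1, the cytosolic aminotransferase, rose (2.35 ± 0.25). Regulators of mitochondrial genes were lower as well, 20 of 21, among them the coactivator gene Ppargc1a (-0.90 ± 0.18), the nuclear receptor gene Esrra (-1.36 ± 0.12) and the muscle regulator gene Perm1 (-2.08 ± 0.14).

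Glycolysis and glucose uptake genes went both ways, with 11 of 29 up and 14 down. Hk2, the hexokinase of muscle, fell (-1.08 ± 0.08) while Hk3, that of leukocytes, rose (3.27 ± 0.21), and Slc16a3, which exports lactate, rose by 4.34 ± 0.17. Pentose phosphate and one-carbon genes, which feed nucleotide synthesis, had 16 of 27 up and 4 down. Psat1, of serine synthesis, rose by 3.04 ± 0.14 and the mitochondrial folate enzyme gene Mthfd2 by 2.76 ± 0.18. In the creatine and adenylate kinase list 7 of 12 members fell and 3 rose (median -0.59). Its summed signal was lower in MI 3 days, at 322 to 386 against 982 to 1049 in sham. Opposite to most of that list, Gatm, which starts creatine synthesis, rose (2.12 ± 0.24).

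In many families the isoform typical of striated muscle and its widely expressed counterpart moved apart. This set of 21 pairs was chosen after values had been seen, so its counts are a description. The muscle isoform fell in 19 pairs, and in 12 of those the counterpart rose. The change of the counterpart was above that of the muscle isoform in all 21 pairs, past the threshold or not. For ribosomal protein L3, Rpl3l had levels of 5.49, 5.36, 5.54 and 5.59 on the sham arrays and 2.69, 2.62, 2.52, 2.60 and 3.01 on the MI 3 days arrays and fell 6.99-fold (-2.80 ± 0.19). Rpl3 had levels of 5.37, 5.21, 5.29 and 5.43 on the sham arrays and 6.93, 6.79, 6.91, 6.96 and 6.87 on the MI 3 days arrays and rose 2.97-fold (1.57 ± 0.07). The groups were apart for both genes, in opposite directions. For elongation factor 1 alpha, Eef1a2 changed by -1.39 ± 0.13 and Eef1a1 by 1.37 ± 0.12. For the carnitine palmitoyltransferase that admits fatty acids to mitochondria, Cpt1b changed by -1.75 ± 0.18 and Cpt1a by 0.91 ± 0.11. For perilipins, which coat lipid droplets, Plin5 changed by -2.41 ± 0.14 and Plin2 by 2.23 ± 0.17, for glucose transporters Slc2a4 by -1.96 ± 0.17 and Slc2a1 by 1.25 ± 0.14, and for creatine kinase Ckm by -2.32 ± 0.20 and Ckb by 0.53 ± 0.14. Alpha tubulin (Tuba8 at -1.76 ± 0.16, Tuba1b at 1.44 ± 0.12) and alpha actinin (Actn2 at -0.99 ± 0.12, Actn1 at 2.67 ± 0.22) showed it too. Near-identical copies of Rpl3 and Eef1a1 exist in the genome, so values of these genes are uncertain. Macrophage genes rose on the same arrays, with summed signals of 661 to 740.1 in sham and 1198 to 1794 in MI 3 days, and the part of a different cell mixture in the pairs was not tested.

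**Figure D4:**
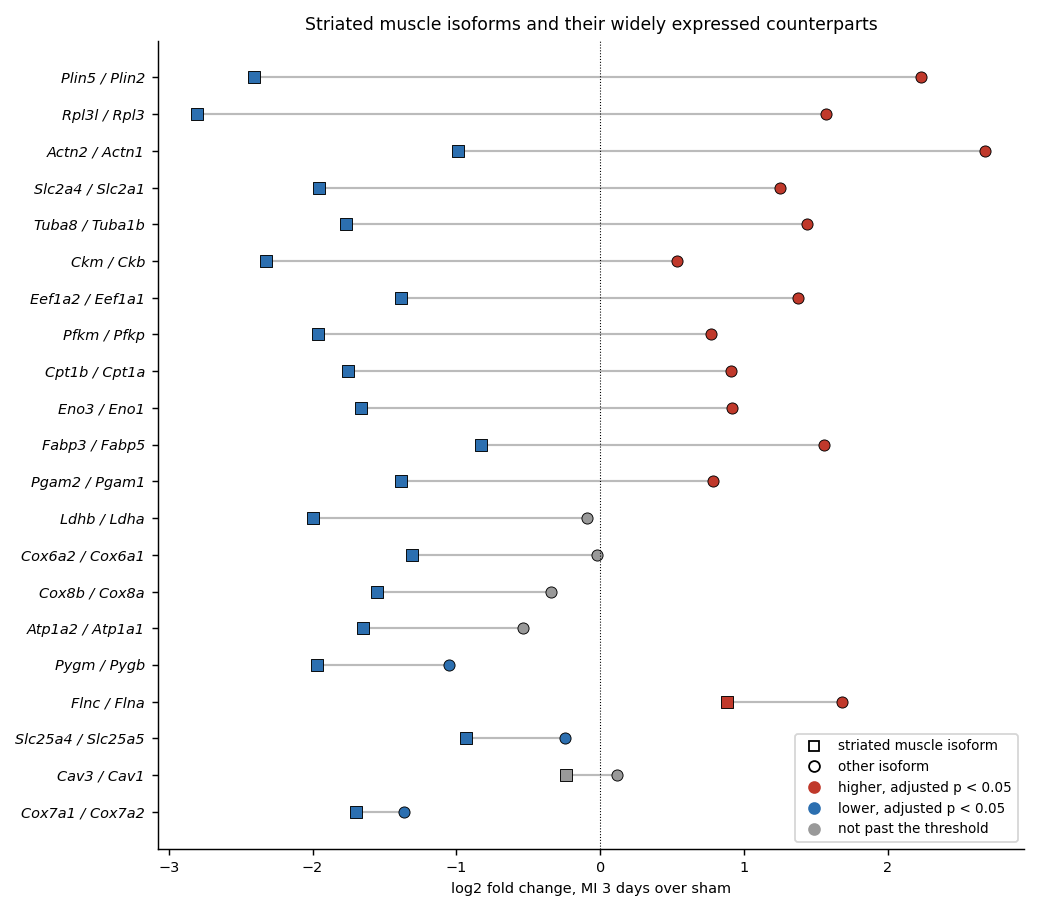
Log2 fold change of MI 3 days over sham (x axis) for 21 pairs of isoforms (y axis), with squares for the striated muscle isoform, circles for the other one and colour for the call. In each pair the circle lies to the right of the square, and in 12 pairs the muscle isoform fell while its counterpart rose.

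Stress programmes differed from each other. Endoplasmic reticulum folding genes had 19 of 25 members up and 4 down (median 0.70). Their promoters are known for the ER stress response element, CCAAT and CCACG spaced by 9 bases, found on either strand in 7 of 21 members with a promoter (33.3%) and 0.137% of all. It is shown in capitals for a pair of members with different changes (RefSeq, GRCm38.p6).

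Hspa5 promoter, chr2:34772000-34772089 (+ strand): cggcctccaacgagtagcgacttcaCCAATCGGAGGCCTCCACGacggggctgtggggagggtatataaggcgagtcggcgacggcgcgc
Pdia6 promoter, chr12:17266469-17266588 (+ strand): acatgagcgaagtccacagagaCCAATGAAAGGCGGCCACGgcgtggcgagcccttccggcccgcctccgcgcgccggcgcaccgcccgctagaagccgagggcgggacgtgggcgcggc

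Hspa5, the chaperone BiP, was not past the threshold and its groups overlapped (0.11 ± 0.20, adjusted p = 0.637), while Pdia6, a disulphide isomerase with the same element, rose by 1.12 ± 0.36, a call lost on the scanned arrays alone. Pdia4 rose by 1.79 ± 0.11, and Herpud1, of ER-associated degradation, fell (-1.74 ± 0.14). Integrated stress response genes went both ways, with 11 of 17 up and 6 down. Atf3 rose (2.34 ± 0.17) while Ddit3, which encodes CHOP, fell (-0.73 ± 0.12). Of 18 heat shock genes 4 rose and 8 fell, with the inducible chaperone gene Hspa1a at 1.31 ± 0.41 and Hspb6, a small heat shock protein of muscle, at -1.15 ± 0.13. Among antioxidant genes Hmox1, which breaks down haem, had levels of 0.78, 0.82, 0.81 and 1.10 on the sham arrays and 5.35, 5.65, 6.36, 5.75 and 5.87 on the MI 3 days arrays and rose 30.3-fold (4.92 ± 0.17), with 14 days at 0.36 ± 0.17 from sham. The glutathione transferase gene Gsta3 fell (-1.93 ± 0.26), and the list as a whole had 11 up and 12 down of 26.

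Of 27 apoptosis and p53 target genes 14 rose, among them Bax (1.03 ± 0.16) and Pmaip1 (2.97 ± 0.29, 3 of 4 sham arrays above background), and 7 fell, among them Ccng1 (-1.71 ± 0.11). Immediate-early genes, which also respond to tissue handling, had 13 of 20 up and 3 down. Fos rose by 2.21 ± 0.19, Myc by 2.97 ± 0.14 and Fosl1 at least 7.24-fold, and Klf4 fell (-1.08 ± 0.10). The part of handling in other changes was not tested. Of 18 clock genes 8 fell and 1 rose. The clock outputs Dbp and Hlf changed by -1.52 ± 0.26 and -1.97 ± 0.21, while Bhlhe40, a repressor that inflammation also induces, rose (1.04 ± 0.09). The labels used here do not state the hour of collection.

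Genes of the protein synthesis machinery showed small increases. Of 75 cytosolic ribosomal protein genes 56 rose and none fell, with a median of 0.35 against -0.15 over all genes (0.53 with median centring), and 1, Rpl3, passed 2-fold. Rps6, of the small subunit, changed by 0.51 ± 0.07. Of 36 ribosome biogenesis genes 24 rose and 2 fell, among the former the helicase gene Ddx21 (1.41 ± 0.13) and the methyltransferase gene Fbl (0.98 ± 0.08). Of 38 proteasome genes 8 rose and 12 fell. The immunoproteasome subunit gene Psmb8 rose (1.37 ± 0.12) and the activator gene Psme1 fell (-0.80 ± 0.11).

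Markers of other cell types that a border-zone sample could hold moved with the groups in part. Among 9 atrial genes 6 fell and 2 rose, and their median moved with the filter, from -2.44 to -1.52 with none and -0.57 with that for every scanned array. Their summed signal went against that median and was higher in MI 3 days, at 513 to 791 against 98.2 to 154 in sham. The highest change in the list was 2.84, and the genes named next are among those that fell. Sln, sarcolipin, had levels of 0.77, 0.86, -1.80 and 2.13 on the sham arrays and -6.43, -3.41, -3.69, -6.29 and -3.34 on the MI 3 days arrays, a range of over 3 units within sham, and changed by -5.12 ± 1.05. Myl7, the atrial myosin light chain, had levels of 0.54, 0.49, -1.77 and 1.5 on the sham arrays and -3.96, -5.03, -4.32, -4.80 and -3.85 on the MI 3 days arrays and changed by -4.58 ± 0.59. Both were above background on 1 of 2 scanned MI 3 days arrays, and the part of atrial tissue in sham samples in these changes was not tested. Among 5 skeletal muscle genes 1 rose and 1 fell, with Tnnt3, a fast troponin T, at 2.78 ± 0.38. Of 30 endothelial genes 9 rose and 10 fell, and their summed signal was lower in MI 3 days, at 393 to 463 against 556 to 643 in sham. Sele, the E-selectin of activated endothelium, went against that sum and rose at least 2.58-fold (its call was lost with normexp). Of 16 mural genes 6 rose and 7 fell. The contractile genes Acta2 and Tagln, shared with myofibroblasts, rose (0.92 ± 0.17 and 1.82 ± 0.20) while Rgs5, a pericyte gene, fell (-1.32 ± 0.13). The mesothelial and epicardial list had 4 members up and 4 down of 12. Aldh1a2, which makes retinoic acid, rose (3.61 ± 0.12) and Msln, mesothelin, fell (-1.98 ± 0.58). Of 12 nerve and Schwann cell genes 3 rose and 5 fell (median -0.48). Th and Dbh, which make noradrenaline, fell (-0.61 ± 0.14 and -1.71 ± 0.18), and Gap43 and Mbp, of growing axons and of myelin, rose (2.12 ± 0.20 and 1.86 ± 0.26). Gap43 was above background on 2 of 4 sham arrays, and Mbp had other probes that were not past the threshold.

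**Figure D5:**
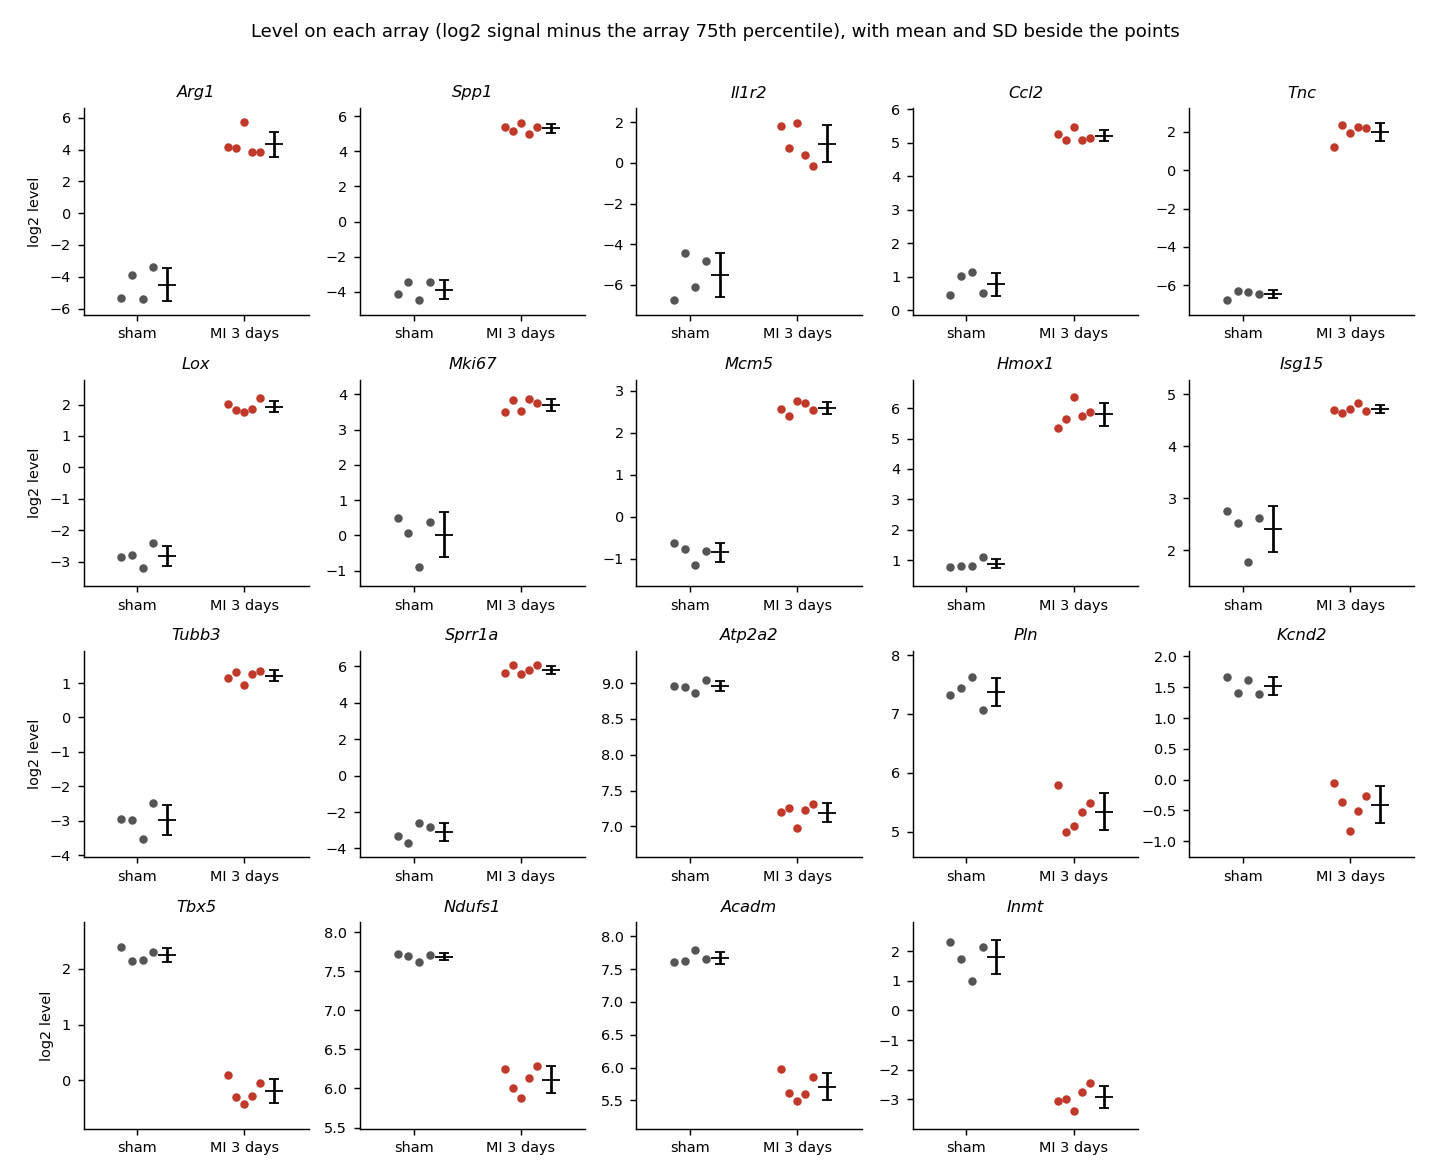
Level on each array (y axis, in log2 units, with 0 at the 75th percentile of the array) of 19 genes in the 4 sham and 5 MI 3 days samples, with group mean and SD (bars) beside the points. In each panel the points of the groups do not overlap, from Arg1 and Spp1, more than 7 units higher in MI 3 days, to Inmt, more than 3 units lower.

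Long noncoding RNAs went down more often than up. Of 7009 tested long noncoding probes 894 (12.8%) rose and 3058 (43.6%) fell, 3952 (56.4%) in all. Among the 25252 other probes 29.0% rose and 38.7% fell. Of the called noncoding probes 22.6% were higher, or 35.1% with median centring. Among 1717 lincRNA regions with 2 or more tested probes, all probes rose in 108 and all fell in 386, while 95 regions had probes called in both directions. Coordinates of regions come from the annotation of the array, build mm9, and regions have no gene name there.

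The region chr14:106562325-106660675 (+ strand) had mean levels over its 3 probes of -4.96, -4.89, -4.40 and -3.67 on the sham arrays and -1.65, -1.86, -1.70, -1.83 and -1.69 on the MI 3 days arrays. All its probes rose. The short region chr17:34018371-34019394 (- strand) had mean levels of -2.79, -3.32, -4.82 and -2.69 on the sham arrays and -1.17, -0.59, -0.80, -0.51 and -0.66 on the MI 3 days arrays and a mean change of 2.66, with sham replicate 3 well below the other sham arrays. At least 1 probe of this region was above background on only 1 of 4 sham arrays. In both regions every MI 3 days array was above every sham array. All 3 probes of chr4:88745770-88774130 (- strand) and all 3 of chr5:91480533-91502237 (- strand) rose too. In these regions, apart from the one on chromosome 17, some probes were above background on no scanned sham array, so the size of their change is not given.

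Among regions that fell, chr19:56815544-56821403 (- strand) had mean levels over 3 probes of 2.84, 2.63, 2.72 and 2.63 on the sham arrays and 0.69, 0.33, 0.03, 0.06 and 0.31 on the MI 3 days arrays. All its probes fell by similar amounts, with a mean change of -2.42. The region chr10:39659425-39674200 (- strand) had mean levels over 5 probes of -1.15, -1.46, -1.62 and -1.68 on the sham arrays and -3.50, -4.07, -4.07, -4.34 and -4.06 on the MI 3 days arrays and all of its probes fell. The groups were apart in both. Some probes of the second region were above background on no scanned MI 3 days array, so the size of its change is not given.

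Of 27 named long noncoding RNAs 18 rose and 2 fell (median 0.55). Meg3, an imprinted RNA expressed by fibroblasts, had levels of 1.90, 1.77, 1.68 and 1.95 on the sham arrays and 2.82, 2.93, 2.57, 3.08 and 3.39 on the MI 3 days arrays and rose by 1.13 ± 0.20. Its groups were apart by more than 0.5 units. Dnm3os, the host of the miR-199 and miR-214 hairpins, rose by 1.83 ± 0.22, and Morrbid, a regulator of myeloid cell survival, by 2.07 ± 0.22. These were above background on 3 and 1 of 4 sham arrays. Mhrt, transcribed from the myosin heavy chain locus, had levels of 6.44, 6.28, 6.31 and 6.44 on the sham arrays and 4.17, 4.21, 3.62, 4.08 and 4.45 on the MI 3 days arrays and fell 4.79-fold (-2.26 ± 0.18). Norad, which binds Pumilio proteins, fell by a smaller amount (-0.69 ± 0.08), and Malat1, an abundant nuclear RNA, was not past the threshold (0.19 ± 0.16, adjusted p = 0.322).

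Most genes that changed at 3 days had moved back by 14 days. Of the 4427 genes that rose, 3367 (76.1%) were lower at 14 than at 3 days and 114 (2.58%) higher, against 26.9% lower and 33.6% higher over all genes. With median centring 3032 genes in place of 5001 were higher at 14 than at 3 days. Of the 6015 that fell, 4289 (71.3%) were higher at 14 days and 26 (0.432%) lower. Both differences use the MI 3 days arrays, so these shares are a description.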

How the data were processed

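Cy3 intensity of 1 RNA sample per array was measured on 14 arrays. The deposited value table holds the linear intensity as processed by Agilent Feature Extraction 10.7.3.1, per the file headers, with no scaling between arrays. Its values were identical (tolerance 1e-05) to the processed signal of the 10 arrays with scanner files (4 sham, 2 MI 3 days, 4 MI 14 days). The submitters' processing notes name limma, with no account of its use. The labels' protocols name both purification with poly-T beads and labelling of total RNA.

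From these deposited intensities, log2 values were computed and centred on each array's 75th percentile over 55482 non-control probes. Probes well above background on every scanned array of at least 1 group were tested (32261). No probe was saturated on the 10 arrays with scanner files. Limma 3.58.1 in R 4.3.3 was fitted to all 14 arrays and p-values were adjusted by Benjamini-Hochberg, after the script was tested on simulated data. The design text speaks of mice. Where samples are not separate animals, p-values measure the spread between samples. The number of arrays limits the precision.

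Scanner files as used here pair no probe with a gene name, so RNA accessions were matched to RefSeq's GRCm38.p6 table, and 25994 of 26444 coding accession probes were named. A gene is shown by its tested probe of highest mean level. Of the genes named, Cdk1, Vegfa, Igf1, Dsp, Cpt1a, Mbp and Norad had other probes that were not past the threshold. Named genes are key genes of each list, the members with the largest changes, those opposite to their list, and the largest changes over all genes, with the exceptions stated in the text. Members and lists were chosen with earlier results of these data known. Alternatives were other scalings, filters and arrays in the fit, the slide or the replicate number as a block, normexp (offset 50, on median signals, since mean signals were not used here) and leaving out each array.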

Additional observations from a re-analysis of the deposited data

Results flagged for a closer look

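Among 248 named genes, 496 sets of sham or MI 3 days arrays were looked at for 1 array standing apart from its group, and 27 had one by Dixon's ratio at the 95% level. Chance gives about 1 in 20 such sets. Each value below is the level of that array against its nearest neighbour in the group. MI 3 days replicate 3 stood apart 11 times. It was the highest of its group for Adam8 (5.46 against 4.77), Arg1 (5.74 against 4.19), Ctsl (6.68 against 6.11), Fcgr4 (3.12 against 2.01), Irf7 (0.81 against 0.31), Plin2 (5.74 against 4.94) and Sdc1 (1.61 against 0.95). It was the lowest of its group for Adrb1 (-1.18 against -0.35), Cox6a2 (8.50 against 8.77), Mybpc3 (7.70 against 8.10) and Tuba8 (4.60 against 4.99). MI 3 days replicate 1 stood apart 3 times. It was the lowest of its group for Gpnmb (1.52 against 2.10), Mmp14 (1.29 against 1.56) and Top2a (0.58 against 1.06). MI 3 days replicate 5 stood apart 3 times. It was the highest of its group for Dcn (7.81 against 7.65), Fcgrt (2.79 against 2.50) and Mrc1 (3.54 against 3.21). Sham replicate 1 stood apart 5 times. It was the highest of its group for Ccng1 (6.05 against 5.92), Fkbp1b (-0.84 against -0.98), Hgf (-4.96 against -6.39) and Perm1 (5.58 against 5.47). It was the lowest of its group for Aldh1l1 (0.68 against 4.24). Sham replicate 3 stood apart 2 times. It was the lowest of its group for Ndufs1 (7.62 against 7.70) and Serpinh1 (4.14 against 4.36). Sham replicate 4 stood apart 3 times. It was the highest of its group for Hmox1 (1.09 against 0.82), Nppb (5.14 against 4.73) and Sdc1 (-1.59 against -2.03).

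A further 11 named genes were past the threshold in opposite directions at 3 and 14 days, each against sham, and differed between the times in the limma contrast itself. The log2 change from 3 to 14 days was positive for C1s1 (1.83), C3 (2.13), Comp (6.88), Dcn (1.37), Eln (3.60), Fbln1 (3.51), Omd (2.89), Pi16 (2.71) and Serping1 (1.72). It was negative for Mrpl52 (-0.61) and Pcna (-1.40). Eln, Comp, Omd, Pi16, C1s1 and Serping1 had been chosen for this pattern, so their differences are a description.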

How the results depend on the processing

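Over 248 named genes and 25 settings, 6124 of 6154 values kept their direction and their side of the threshold, 23 lost the call, 1 gained it and 6 turned in sign, and the cause was not tested. The turned values were all of genes not past the threshold. Gja1 was 0.082 with median centring, 0.083 on the scanned arrays only, 0.14 when slides entered as a block and 0.084 with normexp. Malat1 was -0.033 on the scanned arrays only and -0.14 when slides entered as a block, but 0.37 and past the threshold with median centring. With normexp 2616 long noncoding probes were past the threshold and 462 of them higher. With median centring 3032 genes were higher at 14 than at 3 days. Of all called probes 39.1% were higher in MI 3 days, or 51.0% with median centring and 44.8% with quantile normalization. The lists for glycolysis, heat shock, proteasome and endothelium changed the sign of their median under both, and those for mural cells, Wnt modulators and basement membrane under median centring. Normexp lowered medians of dim lists, such as mitosis (2.40) and CXC chemokines (1.24). The calls past the threshold numbered 16374 probes with a slide block, 17591 on the scanned arrays only, 15397 with normexp and 18412 with a filter for probes above background on every scanned array. Leaving out 1 sham or MI 3 days array gave 19792 to 20575 probes and 9923 to 10217 genes past the threshold. Of distinct list members 1324 to 1349 were then past it, against 1358 with all arrays. With the replicate number as a block 20054 probes, 9873 genes and 3823 long noncoding probes were past the threshold. The correlations of deviations between arrays of the same number were -0.02, 0.16, 0.03 and -0.07. The value of 0.16, for the arrays numbered 2, was the highest of all combinations of numbers. These weak correlations show no clear pairing by number and cannot exclude it. Signals near background limit the size of changes of dim probes.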
